A study of Mus musculus with 44 samples.

Results

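Integrins and laminins were read out in liver and skeletal muscle of Slc16a13 knockout (KO) mice and their wild-type (WT) littermates by RNA sequencing of polyadenylated RNA. Every gene was taken whose symbol names a numbered integrin alpha chain or alpha v, an integrin beta chain, or a laminin alpha, beta or gamma chain. This gave 32 of the 38202 genes in the count table, namely 13 integrin alpha, 8 integrin beta, 5 laminin alpha, 3 laminin beta and 3 laminin gamma genes. The rule uses names and no measured value, although it was set with earlier results of these data known. Integrin chains with letter names (Itgal, Itgam, Itgax, Itgad, Itgae) fall outside this rule.

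The 11 WT and 11 KO mice were male C57BL/6N animals of 20 weeks of age that had eaten a high-fat diet (HFD) for 15 weeks, and both genotypes were fasted overnight before they were killed. The knockout is constitutive, so every cell type carries it, and it was made with CRISPR/Cas9 by deletion of the proximal promoter and the first exons of Slc16a13, a lactate transporter gene. Both tissues were taken from each mouse, which gave 44 libraries in 4 groups of 11. Each mouse is named here by its animal number.

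Laminins are heterotrimers of 1 alpha, 1 beta and 1 gamma chain that form the sheet-like scaffold of the basement membrane. Integrins are cell surface receptors of 1 alpha and 1 beta chain that bind laminins, collagens, fibronectin or other cells and link them to the cytoskeleton. In skeletal muscle the laminin with the alpha 2 chain surrounds the fibre and is held by integrin alpha 7 beta 1 and by dystroglycan, whereas the liver sinusoid is known for a sparse and discontinuous basement membrane.

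Each library held between 20150712 and 35218243 counted reads. Slc16a13 was counted 99 to 302 times in WT livers and 0 to 8 times in KO livers. In muscle it was counted 4 to 22 times in WT libraries and 11 to 40 times in the libraries labelled KO. Its count there was not lower under the KO label, and these are called the muscle libraries labelled KO. These counts are few, and the paper describes the gene as only marginally expressed in skeletal muscle. The paper also reports loss of its expression in several organs of KO mice by qRT-PCR. The livers with 0 to 8 counts carry the same animal numbers as these muscles. Tissue identity was checked with 7 hepatocyte markers, which summed to 85260 to 119100 CPM (read counts scaled by library depth) in WT livers and 4.35 to 13.7 CPM in WT muscles. The 7 myofibre markers summed to 135700 to 182000 CPM in WT muscles and 2.18 to 53.3 CPM in WT livers. In 4 KO livers (mice 532, 602, 583 and 611) long genes held fewer reads than in the other livers: log2 CPM changed per doubling of gene length, relative to the mean of all livers, by -0.54, -0.43, -0.26 and -0.08 there, against 0.04 to 0.10 in the WT livers. This bears on laminin and integrin genes because their median length was 4969 bases, compared with 2324 bases over all genes with a length.

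Levels between genes can be compared only per length, and for this the RPKM values (reads per kilobase of length and per unit of depth) of the authors were used. The gene length inside these values was not fixed. It departed by more than 1% from the median of the gene in 45.8% of values, and levels were therefore also calculated as counts over the longest coding transcript of the GENCODE vM21 annotation. Where the lengths gave another order of genes that are ranked here, both are reported.

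**Figure D1:**
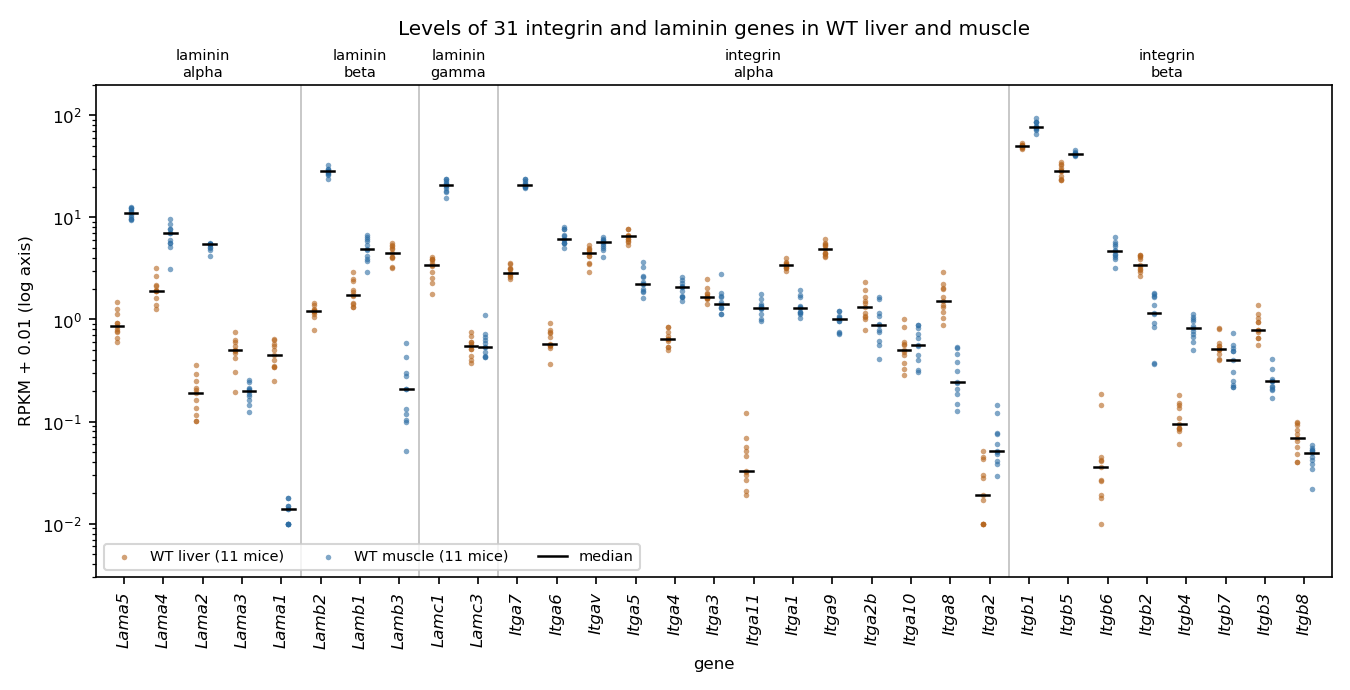
Level of 31 of the genes in RPKM with 0.01 added (log axis) in 11 WT livers (brown) and 11 WT muscles (blue), 1 point per mouse and a black line at the median, grouped by chain class. Itgb1 and Itgb5 stood at the top in both tissues, at medians of 49.7 and 28.5 RPKM in liver, while Lamb2 and Lamb3 exchanged their order between tissues.

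In the WT mice, the leading laminin beta chain differed between the tissues. Lamb2, the beta 2 chain, stood at 23.7 to 32.2 RPKM in the 11 muscles (median 28.2) and at 0.784 to 1.43 RPKM in the 11 livers (median 1.202). Lamb3, the beta 3 chain of laminin-332 in epithelial basement membranes, showed the opposite pattern with 3.17 to 5.56 RPKM in livers (median 4.45) and 0.042 to 0.573 RPKM in muscles (median 0.199). No liver overlapped with any muscle for either gene. The third chain, Lamb1, had a median of 1.71 RPKM in liver and 4.86 RPKM in muscle. Of the summed RPKM of the 3 beta chains, Lamb3 took a median share of 60.6% in liver and Lamb2 one of 83.9% in muscle, and these shares were 57.2% and 86.4% with the longest coding transcript as length.

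The 250 bases before the start site of genes with opposite patterns are shown for context (RefSeq, GRCm38.p6), and windows of 21 of the 32 members were counted. Any member windows on a chromosome left out here are not in this count, whereas the comparison over all windows keeps that chromosome. Capitals mark the E-box core CAGCTG, a palindrome that reads the same on both strands and is a core recognised by bHLH factors. Lamb2 (chr9:108479612-108479861, plus strand) and Lamb3 (chr1:193301744-193301993, plus strand, the upstream of 2 listed starts) are the beta chains that traded places. Lama2 (chr10:27616943-27617192, minus strand) and Lama5 (chr2:180225860-180226109, minus strand) are alpha chains that were higher in muscle than in liver.
Lamb2: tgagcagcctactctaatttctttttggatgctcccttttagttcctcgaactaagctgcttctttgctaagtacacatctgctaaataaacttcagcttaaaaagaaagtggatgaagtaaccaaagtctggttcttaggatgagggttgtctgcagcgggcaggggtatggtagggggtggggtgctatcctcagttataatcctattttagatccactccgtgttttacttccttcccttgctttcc
Lamb3: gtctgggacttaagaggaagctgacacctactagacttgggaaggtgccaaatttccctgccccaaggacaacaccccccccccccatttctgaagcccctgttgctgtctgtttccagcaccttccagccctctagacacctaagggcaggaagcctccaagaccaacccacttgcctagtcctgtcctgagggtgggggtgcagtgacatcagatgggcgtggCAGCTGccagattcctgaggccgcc
Lama2: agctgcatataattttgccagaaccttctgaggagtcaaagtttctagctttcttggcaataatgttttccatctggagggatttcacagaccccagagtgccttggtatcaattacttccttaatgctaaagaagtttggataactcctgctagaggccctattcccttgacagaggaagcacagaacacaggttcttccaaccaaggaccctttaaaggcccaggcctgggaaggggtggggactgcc
Lama5: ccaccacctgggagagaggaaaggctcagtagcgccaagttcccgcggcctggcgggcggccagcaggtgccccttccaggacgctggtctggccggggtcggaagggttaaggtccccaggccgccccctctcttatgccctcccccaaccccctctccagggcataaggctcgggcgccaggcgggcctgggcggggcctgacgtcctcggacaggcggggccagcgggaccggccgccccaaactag
The E-box core was present in the Lamb3 window and in 6 of the 24 member windows, compared with 4271 of 32851 windows of the same length, and TATAAA was found on either strand in 0 of the 24, compared with 12.4%. Windows differed in base composition. GC content was 43.6% for Lamb2, 47.2% for Lama2 and 72.4% for Lama5, against a median of 52.4% over all windows. The Lama2 window held 0 CpG dinucleotides and that of Lama5 held 19. These are descriptions of letters in a window, and no binding was measured here.

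Laminin alpha chains set the receptor specificity of the trimer, and here the choice of length mattered. In WT muscle, Lama5, the chain of vascular and synaptic basement membranes, stood at 9.36 to 12.6 RPKM (median 11.0). Lama4, a chain of endothelial and fat cell basement membranes, stood at 3.08 to 9.73 RPKM (median 7.01), and Lama2 at 4.198 to 5.59 RPKM (median 5.48). With the longest coding transcript as length the order was the reverse for the first and the last: Lama2 had a median of 5.54, Lama5 of 4.25 and Lama4 of 3.31, on the same scale as RPKM. The length implied by counts and RPKM lay between 3659 and 5117 bases for Lama5 in WT muscle, whereas its longest coding transcript has 11388 bases. For Lama2 the implied length (9711 bases) and the longest coding transcript (9614 bases) were close. Which alpha chain was the most abundant in muscle therefore depends on the length used. In WT liver, Lama4 led by both measures, with a median of 1.88 RPKM and a share of 49.6% of the alpha chains.

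Lama1, the alpha chain of early embryonic basement membranes, was a liver transcript in these mice. It was counted 46 to 202 times in the WT livers (median 108) and 0 to 2 times in the WT muscles, and every liver lay above every muscle. Over the summed counts of each tissue this is a ratio of 158 in CPM, resting on 8 reads in all 11 muscles. Lama3, the alpha chain of laminin-332, was also higher in liver, with a median of 0.490 RPKM against 0.191 RPKM in muscle, although single libraries of both tissues overlapped.

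Lamc1, the gamma chain of most laminins, stood at 1.76 to 4.08 RPKM in WT livers (median 3.39) and at 15.3 to 23.8 RPKM in WT muscles (median 20.96). It made up 83.3% of the summed gamma chain RPKM in liver and 95.8% in muscle. Lamc3 had medians of 0.542 and 0.533 RPKM.

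The KO groups held the same leading laminins. Medians in KO liver were 4.23 RPKM (3.06 to 6.33) for Lamb3, 3.01 RPKM (2.30 to 4.196) for Lamc1, 2.34 RPKM (1.40 to 2.99) for Lama4, 1.17 RPKM for Lamb2 and 0.946 RPKM for Lama5. In the muscle libraries labelled KO they were 26.01 RPKM (22.6 to 29.1) for Lamb2, 22.2 RPKM (18.95 to 28.3) for Lamc1, 10.6 RPKM (9.16 to 12.3) for Lama5, 6.48 RPKM for Lama4 and 0.225 RPKM for Lamb3. Lama2 had a median of 5.36 RPKM in these libraries. With the longest coding transcript as length, Lama2 (5.41) again stood above Lama5 (4.06). For each of these chains the range overlapped with that of WT in the same tissue.

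**Figure D2:**
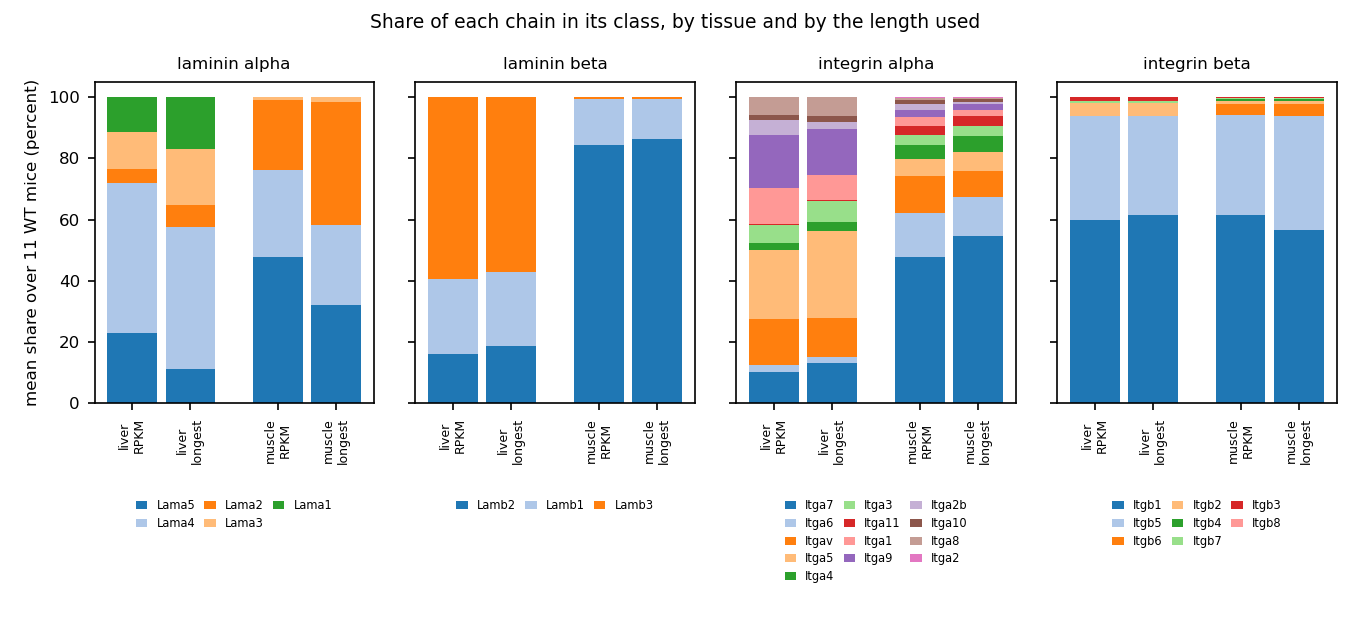
Mean share of each chain in the summed level of its class (laminin alpha and beta, integrin alpha and beta) over 11 WT mice, in liver and muscle, from RPKM and from counts over the longest coding transcript (longest). Bars stack to 100%, and the shares of Lama2 and Lama5 in muscle exchange order with the length, while Lamb3 in liver and Lamb2 in muscle lead by both.

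Itgb1 had the highest median level of all members in each of the 4 groups, by RPKM and by the longest coding transcript. This common partner of the laminin and collagen binding alpha chains stood at 46.5 to 53.5 RPKM in WT livers (median 49.7) and 65.2 to 94.5 RPKM in WT muscles (median 77.4). Medians were 48.0 RPKM in KO livers and 78.4 RPKM in muscle libraries labelled KO. For counts the tissues differed far less, by a log2 fold change of 0.21 (SE 0.04, edgeR adjusted p = 4.2e-05), compared with 0.66 for log2(RPKM + 0.1). The length inside the RPKM values differed between tissues as well: it lay between 3600 and 3727 bases in the WT livers and between 2670 and 2804 bases in the WT muscles, with no overlap. Muscle is known for a splice form of beta 1 with its own cytoplasmic tail, but gene counts do not separate splice forms. Itgb5, a partner of alpha v, followed with a median of 28.5 RPKM (23.1 to 35.1) in WT liver and 41.7 RPKM (39.8 to 45.9) in WT muscle, and the groups did not overlap. Together these 2 genes left little for the other 6 beta chains, since the median share of Itgb1 was 59.7% in liver and 61.1% in muscle and that of Itgb5 34.2% and 32.7%.

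Among the integrin alpha chains, Itga7 dominated in muscle and no single chain did so in liver. Itga7, the laminin receptor chain of the muscle fibre, stood at 19.6 to 23.6 RPKM in WT muscles (median 20.5) and 2.46 to 3.53 RPKM in WT livers (median 2.86), which is 48.1% of the summed alpha chain RPKM in muscle and 9.87% in liver. Itga6, another laminin receptor chain, had a median of 6.07 RPKM (5.02 to 7.97) in WT muscle and 0.568 RPKM (0.358 to 0.906) in WT liver. The liver was led by Itga5, the fibronectin receptor chain, with a median of 6.53 RPKM (5.33 to 7.77), against 2.22 RPKM (1.62 to 3.61) in muscle. Itga9 followed with 4.93 RPKM (4.05 to 6.17) in liver and 0.995 RPKM (0.703 to 1.21) in muscle, then Itgav with 4.50 RPKM and the collagen receptor chain Itga1 with 3.42 RPKM. With the longest coding transcript as length, Itga7 in WT liver (median 2.86) stood above Itgav (2.79) and Itga1 (1.87). Itga9 and Itgav overlapped in liver and their order is not separated beyond the spread between mice. In the KO groups the leading integrins overlapped in range with WT of the same tissue, but the order was not fully kept. In KO liver Itgav (median 4.235 RPKM) stood above Itga9. With the longest coding transcript as length it stood below Itga9 (2.825 against 3.127). Medians in KO liver were 26.6 RPKM (21.96 to 34.6) for Itgb5, 6.34 RPKM (4.27 to 8.41) for Itga5, 3.95 RPKM (1.90 to 7.79) for Itga9, 2.95 RPKM for Itga7 and 0.513 RPKM for Itga6. In the muscle libraries labelled KO they were 41.7 RPKM (35.6 to 44.5) for Itgb5, 19.5 RPKM (17.9 to 24.4) for Itga7, 6.36 RPKM (5.53 to 10.7) for Itga6, 2.12 RPKM for Itga5 and 1.12 RPKM for Itga9. Of the WT integrin alpha sum, the median share of Itga5 in liver was 22.6%, of Itga9 18.2%, of Itgav 15.6% and of Itga1 11.8%.

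Some members were close to the limit of detection. Itga2, the platelet and epithelial collagen receptor chain, was counted 0 to 5 times in WT livers and 2 to 14 times in WT muscles and was not tested in any comparison. Itgb8, an activator of latent TGF-beta, was counted 5 to 19 times in WT livers and 3 to 11 times in WT muscles. It was not tested between tissues or in muscle.

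The tissue comparison was tested with the quasi-likelihood test of edgeR across all genes in the WT mice. It called 16 of the 30 members tested higher in muscle, compared with 45.5% of all 13907 genes, and 11 higher in liver, again compared with 45.5%. Most genes differ between these organs, and without a limit on the fold these shares of members (53.3% and 36.7%) are read against that background. At a difference of at least 2-fold, 13 members (43.3%) were higher in muscle, compared with 26.6% of all genes, and 9 (30%) were higher in liver, compared with 28.5%. The median log2 fold change over the 30 members was 0.20, against -0.00 over all genes tested. With CPM scaled over both tissues together, no muscle overlapped with any liver in 21 of the 30 members, compared with 70.9% of all genes. Itgb6, Itga11 and Lama1 passed the filter on low counts through 1 tissue alone and so had to differ. Lamb3 (5 to 43 reads in WT muscles) and Itgb4 (6 to 21 reads in WT livers) also passed only with the libraries of their higher tissue. These members stay in the counts given here, but their calls carry no weight and no p is given for them. Bulk tissue was sequenced, so fewer cells of a type and less RNA per cell cannot be told apart.

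Itgb6, the beta chain that with alpha v activates latent TGF-beta in epithelia, differed most on the muscle side. It was counted 314 to 762 times in the WT muscles and 0 to 7 times in the WT livers. This is a log2 fold change of 7.67 (SE 0.21). Itga11, a fibrillar collagen receptor chain of mesenchymal cells, was counted 110 to 225 times in muscle and 1 to 13 times in liver. Its log2 fold change was 5.21 (SE 0.21). Lama2 had 42.4 to 56.7 CPM in muscle and 0.901 to 3.32 CPM in liver, which is a log2 fold change of 4.79 (SE 0.15). For Lamb2 the log2 fold change was 4.53 (SE 0.07, adjusted p = 3.9e-27), the smallest adjusted p of any member. Lama5 followed with 3.79 (SE 0.09) and Itga6 with 3.36 (SE 0.11), and in all 4 genes every muscle lay above every liver. The other called members on this side included Itgb4, Itga7, Lamc1, Itga4, Lama4 and Lamb1, from 3.10 for Itgb4, the hemidesmosome chain that pairs with alpha 6, down to 1.45 for Lamb1. Itgb5, Itgb1 and Itgav were called at less than 2-fold.

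On the liver side, Lama1 had a log2 fold change of -7.07 (SE 0.29) and Lamb3 one of -4.63 (SE 0.20). Itga8, the nephronectin receptor chain expressed by stellate and smooth muscle cells, had 5.26 to 11.3 CPM in WT livers and 0.526 to 1.54 CPM in WT muscles (log2 fold change -3.11, SE 0.17). Itga9 differed by -2.24 (SE 0.06) and Itgb3, the beta chain of the platelet and vitronectin receptors, by -1.88 (SE 0.16). Itgb2, the common beta chain of the leukocyte integrins, had 7.74 to 11.3 CPM in livers and 0.995 to 5.08 CPM in muscles, a log2 fold change of -1.69 (SE 0.20, adjusted p = 2.9e-08). Smaller differences toward liver were called for Itga5 (-1.47), Lama3 (-1.44), Itga1 (-1.36), Itga2b (-0.84) and Itga3 (-0.32). Itga10, Lamc3 and Itgb7 were not called (adjusted p = 0.44, 0.24 and 0.061), while DESeq2 and limma-voom each called 12 members higher in liver, the additional one being Itgb7. The call of Itga3 was lost when log2 RPKM was tested.

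Markers of several cell types differed between the tissues, and their part in the differences of the members was not tested. Some lists differed in the direction of members that their cells are known to express and others did not. The 6 macrophage markers summed to 259 to 329 CPM in WT livers and 20.9 to 66.2 CPM in WT muscles, beside Itgb2. The 5 markers of liver sinusoidal endothelium summed to 229 to 268 CPM in livers and 24.1 to 42.3 CPM in muscles, beside Itga9 and Itga1, and the 5 cholangiocyte markers to 31.7 to 61.9 and 2.08 to 5.84 CPM, beside Lamb3. In the other direction, 5 Schwann cell markers summed to 2.14 to 4.37 CPM in livers and 23.4 to 46.4 CPM in muscles. The 7 general endothelial markers summed to 134 to 167 CPM in livers and 184 to 296 CPM in muscles. Smooth muscle and pericyte markers (6 genes) summed to 50.8 to 82.3 CPM in livers and 264 to 411 CPM in muscles, and 7 fibroblast and stellate markers to 176 to 330 and 271 to 481 CPM. The smooth muscle and pericyte sums were higher in muscle, as were Lamb2 and Lama5. Itga8 was higher in liver, whereas the fibroblast and stellate sums overlapped between the tissues and the smooth muscle and pericyte sums went the other way. The 6 platelet and megakaryocyte markers, of which Itga2b is 1, summed to 2.09 to 3.53 CPM in livers and 2.67 to 5.65 CPM in muscles, while Itgb3 and Itga2b were higher in liver. Of the 4 satellite cell markers, Myf5 and Chodl were at 0 in all WT livers, and of the macrophage markers 1 (Clec4f, the Kupffer cell lectin) was at 0 in all WT muscles. CPM was scaled within each tissue, so these sums are compared across tissues only as orders of size. No direction is read from the general endothelial, the fibroblast and stellate, or the platelet and megakaryocyte sums.

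The mice labelled KO share no library with the WT comparison. Again 16 members were higher in muscle (42.8% of all genes tested) and 11 higher in liver (43.9%), and these were the same 16 and 11 genes as in WT. Agreement between the genotypes was not counted over all genes, so it is not read as particular to the members. Itgb6, Itga11 and Lama1 had to differ here as well, and Itgb4 (5 to 17 reads in KO livers) again passed the filter only with the muscle libraries. Log2 fold changes were 7.64 (SE 0.27) for Itgb6, 5.96 (SE 0.23) for Itga11, 5.18 (SE 0.19) for Lama2, 4.35 (SE 0.07) for Lamb2, -4.25 (SE 0.17) for Lamb3 and -6.31 (SE 0.35) for Lama1. In 19 of the 30 members the tissues did not overlap, compared with 60.9% of all genes. The median log2 fold change was 0.34 over the 30 members tested, and 0.17 over the 31 tested without the 4 KO mice whose livers had few reads on long genes.

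**Figure D3:**
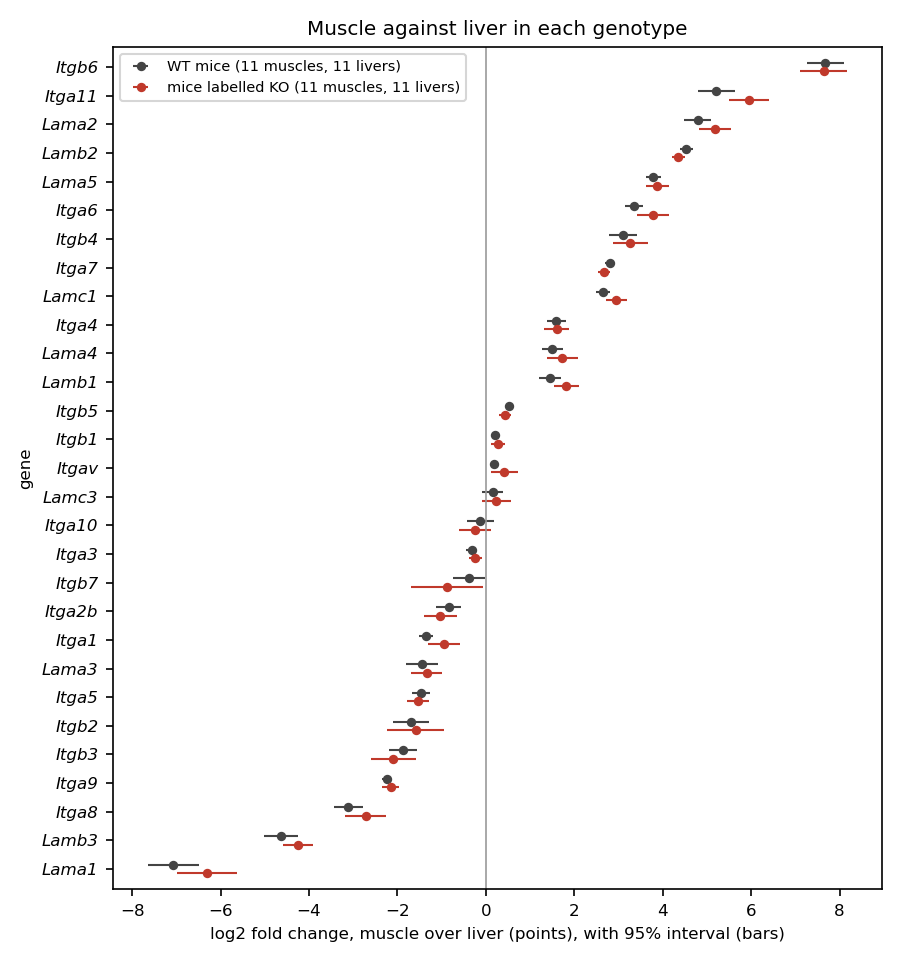
Log2 fold change of muscle over liver for 29 of the members tested, with 95% intervals, in WT mice (grey) and in mice labelled KO (red), 11 livers and 11 muscles each. Itgb6 and Lama1 mark the ends of the order, at 7.67 and -7.07 in WT, and each called gene shown keeps its sign in both genotypes.

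Genes that work together with the members were read from the same WT comparison. Basement membrane partners of laminin were called higher in muscle in 12 of 15 genes tested and higher in liver in 3, compared with 45.5% of all genes in each direction. Smoc2 (log2 fold change 4.17, SE 0.15) and the basement membrane collagen Col15a1 (3.28, SE 0.23) led on the muscle side. Col18a1, the precursor of endostatin, had a log2 fold change of -6.42 (SE 0.14) and Smoc1 one of -4.07 (SE 0.17). The dystroglycan complex and other laminin receptors were called higher in muscle in 15 of 22 genes and higher in liver in 7, against the same 45.5% in each direction. The sarcoglycan Sgca was counted 4905 to 6620 times in WT muscles and 0 to 2 times in WT livers. Sntb1 and Dtnb, a syntrophin and a dystrobrevin, were higher in liver by log2 fold changes of -4.95 (SE 0.16) and -3.26 (SE 0.08).

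Adaptors and kinases on the inner side of integrins were higher in muscle in 12 of 27 genes and higher in liver in 14, which is near the 45.5% of all genes in each direction. Itgb1bp2 (melusin), a muscle binding partner of the beta 1 tail, was counted 2368 to 4704 times in WT muscles and 0 to 3 times in WT livers. Parvb, a parvin, had a log2 fold change of 3.20 (SE 0.06) and the focal adhesion kinase relative Ptk2b one of -4.80 (SE 0.12). Fermt1, the epithelial kindlin, was counted 9 to 52 times in WT livers and 0 times in all 11 WT muscles, which makes it at least 125-fold higher in liver with a floor of 3 counts over the group. Of integrin ligands other than laminin, 9 of 20 were higher in muscle and 10 in liver, also near that background. Thbs1 (3.13, SE 0.35) and Col1a2 (2.73, SE 0.23) stood on the muscle side, and the fibrinogen chains Fga and Fgg, products of the hepatocyte, were counted 0 to 5 times each in WT muscles. Of the 3 leukocyte chains with letter names that were tested, Itgal (-5.32, SE 0.13) and Itgax (-1.17, SE 0.29) were higher in liver and Itgam (0.60, SE 0.24) was higher in muscle.

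In liver, the comparison of KO with WT asks whether loss of Slc16a13 moved these genes. In muscle it compares the labels, because Slc16a13 was not counted less often in the libraries labelled KO. No member passed the threshold in liver: edgeR called 0 of 29 tested at an adjusted p of 0.05, compared with 0.0231% of all 13005 genes, and DESeq2 and limma-voom also called 0. At an unadjusted p under 0.05 there was 1 member, compared with 12.8% of all genes. In muscle edgeR called 0 of 29, compared with 0.00754% of all 13266 genes, the other tools again called 0, and 2 members had an unadjusted p under 0.05, compared with 8.56% of all genes. For 28 of the 29 members in liver and 27 in muscle the 95% interval excluded a 2-fold change, and for 21 and 25 it excluded a 1.5-fold change. The median standard error was 0.15 in liver and 0.13 in muscle on the log2 scale.

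The 5 smallest unadjusted p values in liver belonged to Itgb7, Itgb4, Lamc1, Itga6 and Itgb2. Itgb7, the beta chain of gut-homing lymphocyte integrins, had 1.051 to 1.62 CPM in WT livers (median 1.25) and 1.34 to 11.6 CPM in KO livers (median 1.56), a log2 fold change of 0.96 (SE 0.34, adjusted p = 0.38). KO mouse 532 had the highest value, and mice 602, 583 and 611 followed at 2.20, 2.01 and 1.79 CPM, so that the 4 KO livers above all WT livers were those with few reads on long genes. The log2 fold change was 0.34 without mouse 532, 0.18 without the 4 mice, 1.12 with gene length removed and 0.32 by DESeq2. Itgb2 showed the same animal at 35.03 CPM, against 6.61 to 13.5 CPM in the other KO livers and 7.74 to 11.3 CPM in WT. Its log2 fold change of 0.31 (SE 0.22, adjusted p = 0.44) was 0.01 without mouse 532, 0.10 without the 4 mice and 0.46 with gene length removed. In this liver the 6 leukocyte markers summed to 43.1 CPM and the macrophage markers to 499 CPM, the highest of all livers, compared with at most 18.9 and 329 CPM in WT. This library also had the steepest loss of reads with gene length, and the part of either in these values was not tested.

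Several members had their lowest values in the KO livers with few reads on long genes. Lamc1 had a log2 fold change of -0.24 (SE 0.13, adjusted p = 0.39), with 11.5 to 21.8 CPM in WT livers and 9.19 to 21.7 CPM in KO livers. It was -0.06 without the 4 KO mice, and -0.00 with the dependence of each library on gene length removed. Itga1 had 7.57, 8.04 and 11.8 CPM in KO mice 602, 532 and 583, below the 17.6 to 23.1 CPM of the WT livers, while the KO mice outside the 4 had 18.6 to 23.9 CPM. Its log2 fold change of -0.22 (SE 0.16) became 0.05 without the 4 mice and -0.01 with gene length removed. Itga6 differed from this pattern, with its lowest values (0.812, 0.962 and 1.13 CPM) in KO mice 570, 568 and 587, outside the 4. Its log2 fold change was -0.32 (SE 0.19), -0.26 without the 4 mice and -0.18 with gene length removed. For Itgb4, mice 602 (0.208 CPM) and 570 (0.239 CPM) were the lowest KO livers, and mouse 611 of the 4 was the highest (0.5435 CPM). Its log2 fold change was -0.34 (SE 0.18), -0.37 without the 4 mice and -0.08 with gene length removed. Both rest on few reads, at most 71 per liver for Itga6 and 21 for Itgb4. Mouse 602 alone had the lowest CPM among the KO livers for 14 of the 29 members, and mouse 597 had the highest for 11.

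**Figure D4:**
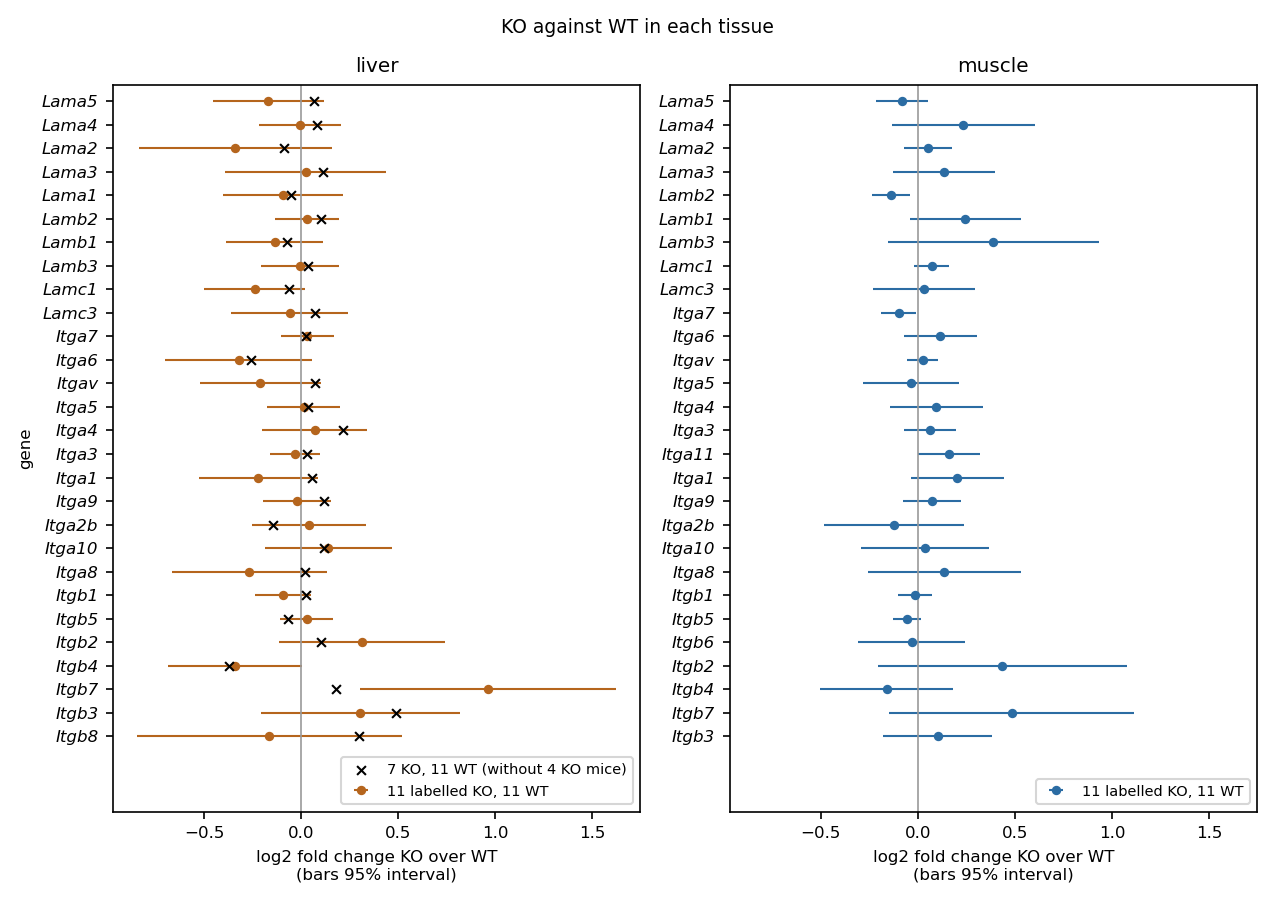
Log2 fold change of KO over WT for 28 of the 29 members tested in liver (left, brown) and likewise in muscle (right, blue), with 95% intervals from 11 against 11 libraries, and crosses for the liver values without 4 KO mice. The intervals leave out 0 for 1 member in liver (Itgb7) and 3 in muscle (Lamb2, Itga7 and Itga11), before adjustment over all genes. They use a normal multiple of the SE, and the unadjusted p of Itga11 from edgeR was 0.059. The cross of Itgb7 at 0.18 lies away from its point at 0.96.

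Over the 29 members the median log2 fold change in liver was -0.03, with 11 above 0 and 18 below, against -0.01 over all genes tested. Without the 4 mice it was 0.04, with 20 above 0 and 9 below. With gene length removed it was 0.19, when the median of all genes was 0.09. The sign of the median thus changed with these libraries and with the treatment of length.

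In muscle, Lamb2 had 139 to 186 CPM in WT (median 162) and 126 to 164 CPM in the libraries labelled KO (median 144), with 5 of the latter below all WT muscles. This is a log2 fold change of -0.14 (SE 0.05, unadjusted p = 0.011 and adjusted p = 0.52 from edgeR), and the groups overlapped. Itga7 differed by -0.10 (SE 0.05, adjusted p = 0.54) and Itga11 by 0.16 (SE 0.08, adjusted p = 0.59). Lamb1 (0.24, SE 0.15) and Itga1 (0.20, SE 0.12) completed the 5 smallest p values. Lamb1 was 0.17 without mouse 561 and 0.14 without mouse 611, and Itga1 was 0.13 and 0.17. The median over the 29 members was 0.06, with 20 above 0 and 9 below, against 0.01 over all genes, and it was 0.00 with gene length removed.

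A few muscles stood at the upper end for several members. Lama4 was at 45.0 and 44.2 CPM in mice 561 and 611, compared with 17.1 to 24.9 CPM in the other libraries labelled KO and 14.2 to 33.2 CPM in WT. Lamb1 was at 44.1 and 50.2 CPM in the same mice, while WT muscles ended at 31.6 CPM. For 11 of the 29 members mouse 561 was the highest of the libraries labelled KO, and mouse 611 was so for 7. Marker sums stood out in these mice as well: the 4 adipocyte markers reached 703 CPM in mouse 561, against at most 356 CPM in WT, and the general endothelial and macrophage markers reached 341 and 84.3 CPM in mouse 611, against at most 296 and 66.2 CPM. In WT, mouse 531 was the highest for 14 of the 29 members and also had the highest macrophage, leukocyte and Schwann cell marker sums. The part of these cells in the members' values was not tested.

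**Figure D5:**
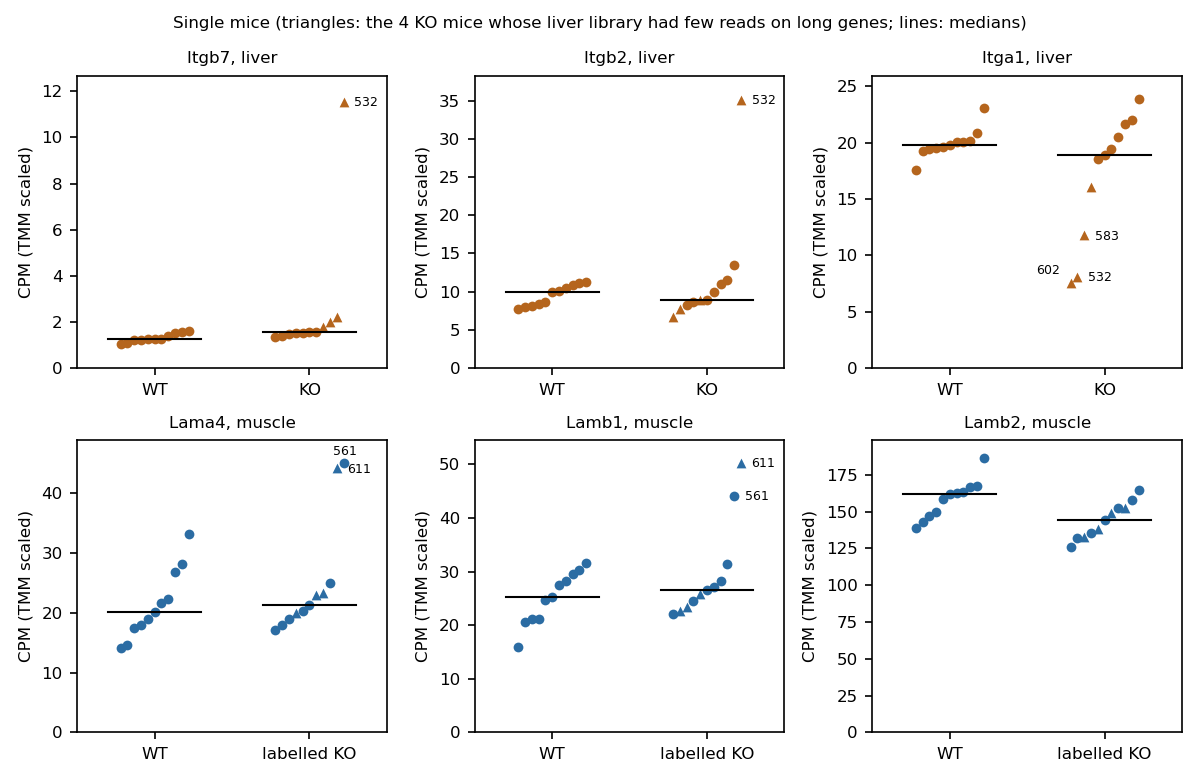
CPM by mouse for 3 members in liver (top) and 3 in muscle (bottom), WT against KO, with triangles for the 4 KO mice whose liver library had few reads on long genes and lines at the medians. Mouse 532 has the highest values of Itgb7 (11.6 CPM) and Itgb2 (35.03 CPM), mice 602, 532 and 583 the low values of Itga1, and mice 561 and 611 the high values of Lama4 and Lamb1.

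The members had a higher median spread between mice than all genes tested, which is given without a test. The median coefficient of variation of CPM was 16.8% in WT liver for the 29 members tested, against 12.1% for all genes, and 19.6% against 11.3% in WT muscle. In KO liver it was 27.6% against 24.2%, and in the muscle libraries labelled KO 21.01% against 11.98%. Itgb1 varied least in WT liver (3.35%) and Itgb5 in WT muscle (4.75%), both among the most deeply counted members, with 3493 or more reads of Itgb1 in each WT liver and 2551 or more of Itgb5 in each WT muscle.

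Whether the difference between the genotype labels differed between liver and muscle was tested with an interaction term over all 44 libraries. It called 0 of the 31 members tested, compared with 0.00678% of all 14739 genes, with 0 also by limma-voom and by DESeq2 and 3 members at an unadjusted p under 0.05, compared with 16.2% of all genes. These were Lamc1 (liver effect minus muscle effect -0.31, SE 0.14, adjusted p = 0.29), Itga6 (-0.43, SE 0.21, adjusted p = 0.30) and Itga1 (-0.42, SE 0.20, adjusted p = 0.30). Without the 4 KO mice the differences were -0.16, -0.34 and -0.15, and with gene length removed they were -0.03, -0.23 and -0.16.

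The partner lists gave no genotype call either. By edgeR, DESeq2 and limma-voom 0 genes were called in each of the 5 lists in liver, in muscle and in the interaction. At an unadjusted p under 0.05 in liver edgeR had 2 of 26 integrin adaptors and kinases, 2 of 18 genes of the dystroglycan list, 1 of 20 ligands and 0 of 14 basement membrane partners and of 4 leukocyte chains. In muscle these were 0 of 25, 2 of 22, 1 of 17, 2 of 16 and 0 of 3. The shares over all genes at this threshold were the 12.8% and 8.56% given above.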

How the data were processed

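Polyadenylated RNA of liver and skeletal muscle from 11 WT and 11 KO mice was sequenced with a stranded kit as single-end reads. The authors deposited raw read counts per gene and unique-read RPKM per gene for the 44 libraries. The aligner, counter and genome build are not given in the sources used here. Total counts per library are given in the report, and the spread between mice includes counting error, which is larger for members with few reads. Groups came from the sample labels. Symbols were matched by gene ID for 36340 of 38202 genes. The members and gene lists were chosen with earlier results of these data known.

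Counts were tested with edgeR 4.0.16 (R 4.3.3) by quasi-likelihood F-tests with filterByExpr, TMM scaling and robust fitting, and p-values were adjusted by Benjamini-Hochberg over all genes tested, with a threshold of 0.05. The study used limma on counts, and limma-voom (limma 3.58.1) and DESeq2 1.42.0 were alternatives, with library-size scaling, other filters (none, or at least 10 counts in every library), limma on log2(RPKM + 0.1) and log2(RPKM + 1), the mouse as a block, leaving out the 4 KO mice with a negative length slope in liver, and a loess correction (span 0.3) for gene length. Leaving out single mice and the longest coding transcript as length were chosen after seeing the data. CPM is TMM-scaled within each tissue, except that overlap between tissues was counted with CPM scaled over both tissues of a genotype. Intervals of 95% are the estimate and its normal multiple of the SE. Named with full statistics were the 5 members with the smallest unadjusted p in each tissue and the 6 with the largest difference in each direction between WT tissues, with levels in every group for the 4 integrins and 3 laminins highest in each WT tissue. Of these, Itgb6, Itga11, Lama1 and Lamb3 are given without p between tissues. Of each partner list the 2 genes at each end were named. Results of 1 member and 1 partner gene are not reported here, although both stayed in every count. Other genes and individual mice named in the report were chosen after their values were seen.

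Deviations from the group mean correlated at a mean of 0.089 between liver and muscle of the same mouse (22 pairs) and -0.008 between different mice (220 pairs), and the pairing comes from the animal numbers in the labels. No 2 libraries of a group were identical. On simulated counts with a 2-fold change, the liver test recovered 99.0% of 195 changed genes among 12940, the interaction 72.4% among 14663 and the tissue test 98.5% among 13818. The simulated counts took their spread from the WT livers alone and held no loss of reads on long genes. Real KO livers varied more, with a median coefficient of variation of 24.15% over all genes against 12.11% in WT livers. The recovered shares therefore do not give the power of the genotype tests on the real libraries. Promoter windows came from RefSeq (GRCm38.p6).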

Additional observations from a re-analysis of the deposited data

How the results depend on the processing

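Under every alternative 0 members were called between genotypes in either tissue and in the interaction. Of the values and counts that answer a comparison, 126 stayed within their limits and 14 moved. Members called between tissues numbered 12 to 17 higher in muscle and 9 to 12 higher in liver, the lowest with at least 10 counts in every library, where members near 0 in 1 tissue were not tested. In the mice labelled KO Itga3 was not called with library size or with RPKM. The number of genes called among all genes in liver (3) was 6 by DESeq2 and 1 with at least 10 counts in every library. In muscle the 1 gene called became 0 by limma-voom, with at least 10 counts, and with RPKM at either pseudocount. The interaction called 1 gene, 43 by DESeq2, 3 with library size, 0 with at least 10 counts, and 2 each with both RPKM settings and with gene length removed. The cause was not tested. The median of the members in liver was 0.036 without the 4 KO mice and 0.194 with gene length removed. Leaving out single mice gave -0.05 to 0.003 for that median with 3 genes called in liver, and 0.05 to 0.07 for the median in muscle with 1 gene called. Scaling by library size moved the median of all genes from -0.02 to 0.10 in the KO tissue comparison and from -0.03 to -0.11 in the interaction. Lama5 in muscle moved from 11.0 RPKM to 4.25 with the longest coding transcript.

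With the mouse as replicate block, the interaction called 0 members and 1 gene, and each tissue comparison called 27 members, 16 higher in muscle and 11 higher in liver, so the pairing changed no call. The 2 genotype comparisons within a tissue hold different mice and have no block. Depth limits Itga2, Itgb8, Itgb4 and the lower tissue of Itgb6, Itga11, Lama1 and Lamb3.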
